A study of Mus musculus with 8 samples.

Results

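Olfactory receptor gene promoters were examined in the whole-genome bisulfite data of mouse spleen lymphocytes. A promoter was the annotated start of a protein-coding autosomal gene whose symbol begins with Olfr, with 1 kb to either side (GENCODE M21 annotation of the GRCm38 build). A promoter was kept if every file covered the same 3 or more of its CpGs by 5 reads or more. Of 1128 such genes, 994 were measured, out of 21082 protein-coding promoters measured in all. Of the 134 genes not measured, 55 had fewer than 3 CpGs in the reference window and 79 lost theirs to low coverage. The chosen promoters held 7480 of the 8539 CpGs that the reference places in their windows.

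The 8 samples were bulk genomic DNA from spleens of C57BL/6J mice, an inbred strain, aged 6 to 8 weeks. They formed 4 groups of 2: B cells without CD43 from females, the same cells from males, and sorted naive T cells carrying CD4 and CD62L from either sex. The labels give no treatment and no allele beyond the strain, and the study's methods state that every replicate pooled cells of several mice. Each group had 1 file, and whether it merges both samples or holds 1 of them was not stated in the sources used here. Its name carries the number of 1 of the 2 samples, while the records of both samples name it. No spread within a group could be had. A difference between B and T cells was thus seen once in females and once in males, and p-values rest on how far those 2 differences depart from each other, weighed with the spread seen at other promoters, which carries most of the weight. Bisulfite turns unmethylated cytosine into a base read as thymine, and the methylation level is the share of reads that stayed cytosine. 5-Methylcytosine and 5-hydroxymethylcytosine are read alike. Where 4 levels are listed without further words, they are those of B and then T cells of females, followed by B and then T cells of males.

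Olfactory receptors are G protein-coupled receptors of the nasal epithelium and form the largest gene family in the mouse. Each mature olfactory neuron expresses a single receptor allele, picked out of clusters that are otherwise held in heterochromatin. Class I receptors, the kind shared with fish, lie in a single cluster around the beta-globin genes on chromosome 7. Class II receptors fill the other clusters.

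Shown first are a pair of upstream sequences, read 5′ to 3′ along the gene from the GRCm38 genome and ending at the base before the annotated start, with CpGs in capitals. Olfr160 (M72, a receptor long used to trace olfactory axons) is shown as a highly methylated member with a CpG-poor start. Olfr1033 is shown as the least methylated member. Their positions are chr9:37716251-37716500 (minus strand) and chr2:86020383-86020632 (plus strand).
Olfr160: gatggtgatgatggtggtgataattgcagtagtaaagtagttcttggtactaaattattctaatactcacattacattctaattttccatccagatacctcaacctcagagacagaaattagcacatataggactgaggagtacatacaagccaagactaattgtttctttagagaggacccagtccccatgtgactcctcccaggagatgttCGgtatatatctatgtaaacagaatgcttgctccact
Olfr1033: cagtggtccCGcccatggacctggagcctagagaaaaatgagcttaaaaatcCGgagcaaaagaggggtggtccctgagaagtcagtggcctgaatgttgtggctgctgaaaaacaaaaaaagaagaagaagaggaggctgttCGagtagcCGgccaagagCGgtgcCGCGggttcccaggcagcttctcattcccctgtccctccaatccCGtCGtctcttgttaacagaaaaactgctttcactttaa
The Olfr1033 stretch held 9 CpGs and 51.6% G and C, and the Olfr160 stretch 1 CpG and 39.2%. Over 250 bases before to 50 after the start, the median G and C content was 38.0% in olfactory receptor promoters and 56.3% in other autosomal promoters.

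The autosomes of the 4 files had a mean depth of 14.6, 17.7, 16.1 and 17.3 reads per CpG. CpGs of olfactory receptor promoters were covered somewhat less deeply, by 13.1 to 15.1 reads. Summed over its CpGs, the median promoter had 78 to 86.5 reads in a file, and the smallest had 15. Here and below, a read that spans several CpGs is counted at each of them. The labelled cell types were checked by promoters of marker genes fitted in the same way. Of 8 B cell markers 7 were called lower in B cells, among them Ms4a1 at 10.5% in B and 93.6% in T cells of females, and of 8 CD4 T cell markers 7 were called higher in B cells, among them Cd3e. Both CD8 T cell markers were also called higher in B cells, Cd8b1 at 89.98% in B and 40.6% in T cells of females, and none of 4 myeloid, 2 natural killer and 3 erythroid markers was called. The myeloid marker Lyz2 came nearest, with a mean difference of -19.3 points, B minus T (adjusted p = 0.0490 in the quasi-binomial fit). Cells carrying CD8 were depleted in the sort.

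Olfactory receptor promoters were highly methylated in all 4 files. The median level over the 994 promoters was 86.1% and 86.0% in B and T cells of females, and 86.0% and 85.9% in those of males. Promoters of 19261 other autosomal protein-coding genes had medians of 12.4%, 11.6%, 11.5% and 11.9% in the same order. Promoters of 251 vomeronasal receptor genes, the pheromone receptors of a separate sensory organ, had medians of 82.4% to 83.3%. By the mean over the 4 files, 757 olfactory receptor promoters lay at 80% or more, of which 272 lay at 90% or more. Another 170 lay between 70% and 80%, 59 between 50% and 70% and 8 between 20% and 50%, and none lay under 20%. In contrast, 60.1% of the other autosomal promoters lay under 20%. 

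**Figure D1:**
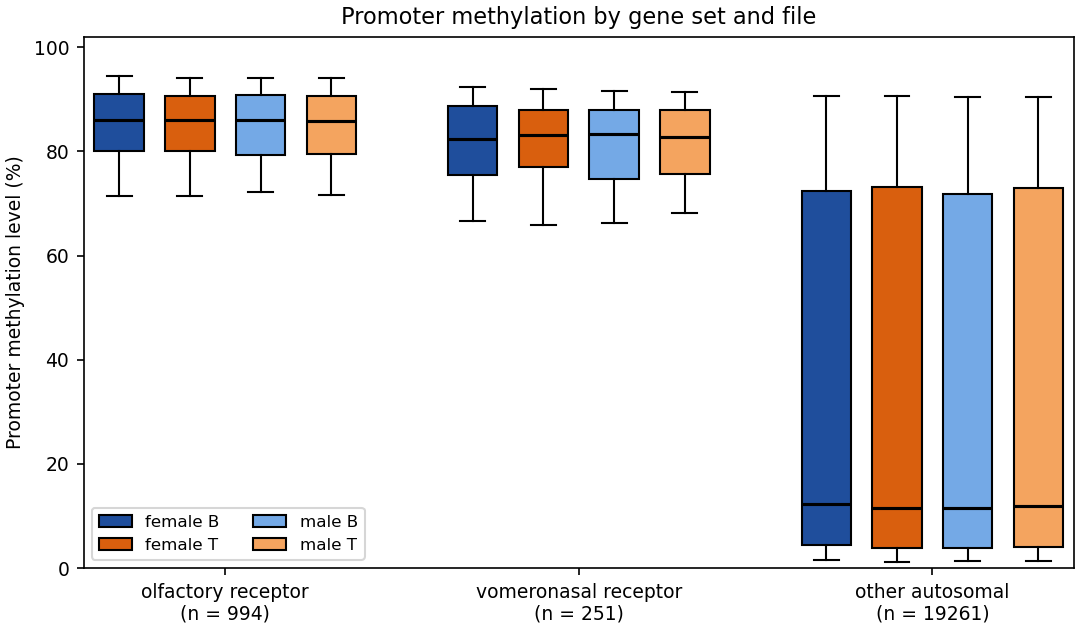
Promoter methylation level in percent (vertical axis) by gene set and file, with boxes from the first to the third quartile, a line at the median and whiskers from the 10th to the 90th percentile of promoters. The olfactory receptor boxes sit near the medians of 86.1%, 86.0%, 86.0% and 85.9% in all 4 files, next to the vomeronasal boxes and far above the median of the other autosomal promoters.

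The median level was high in every class of CpG number. Olfactory receptor promoters had a median of 6 measured CpGs, against 66 for other autosomal promoters. Their median level was 84.7% with 3 to 5 CpGs (384 members), 85.3% with 6 to 10 (432 members), 87.9% with 11 to 20 (150 members) and 89.8% with 21 to 30 (25 members). Other autosomal promoters with as few CpGs were also highly methylated, with medians of 82.2%, 85.0%, 86.3% and 82.5% in these classes. Above 30 CpGs the other autosomal promoters had a median of 6.92%. Only 3 olfactory receptor promoters had that many measured CpGs, with a median of 89.3%. Members under 50% were 3 of the 25 with 21 to 30 measured CpGs (12%) and 5 of the members with fewer (0.260% to 0.694% by class). Of other autosomal promoters, 21.5% lay under 50% with 21 to 30 measured CpGs and 4.56% to 9.49% by class with fewer. Counted by the CpGs of the reference, 2 of the 7 members with over 30 lay under 50%.

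The level varied little with position around the start. Pooled over members, the level was 87.1% in female B cells in the bin farthest upstream (-2000 to -1751 bp), fell to 82.3% in the last 250 bp before the start and was 86.1% at 250 to 499 bp downstream. Equally low bins lay in the first 250 bp after the start (81.7% to 82.7% in the 4 files) and farther downstream (1500 to 1749 bp, 81.8% to 82.3%). The other 3 files had 83.0% to 83.5% in the last 250 bp before the start. Other autosomal promoters had 10.8% to 12.2% in the same bin and 31.5% to 37.3% in the first 250 bp after the start. Pooled levels weigh each promoter by its reads, and a single other promoter held 4613212 of the 26403642 reads in female B cells. The sharp trough that marks most gene starts was nearly absent at receptor genes. Of 994 receptor models, 928 start before the coding sequence, and 66 start at the first codon. The median level of these 66 was 87.5% to 88.1% across the files.

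**Figure D2:**
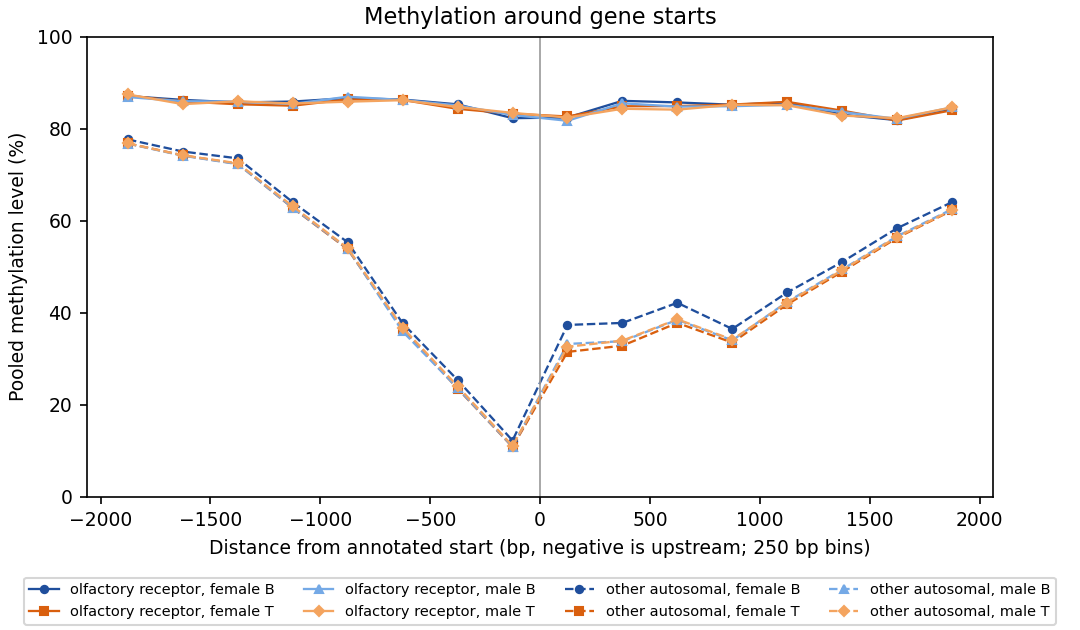
Pooled methylation level in percent (vertical axis) against distance from the annotated start in 250 bp bins (horizontal axis, bp, negative is upstream), as solid lines for olfactory receptor promoters and dashed lines for other autosomal promoters, with a colour and marker for each file. The solid lines stay between 81.7% and 87.5%, while the dashed line of female B cells falls to 12.2% just before the start, where the solid line of that file is at 82.3%.

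The bases next to a CpG went with its level inside olfactory receptor promoters. CpGs with A or T on both sides, 37.2% of those measured, had a pooled level of 79.4% to 79.6% in the 4 files. CpGs with G or C on both sides had 88.9% to 89.8%. In other autosomal promoters the order of the pooled levels was the opposite, with 61.3% to 64.2% for A or T and 9.31% to 10.3% for G or C on both sides. The 2 sets were not matched on CpG number (a median of 6 in members against 66), and pooling weighs each promoter by its reads. The comparison therefore does not isolate the neighbouring bases. Repeat-masked CpGs of receptor promoters had 85.9% to 86.3%, against 84.2% to 84.7% for those outside repeats. 

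By position the 1128 genes fell into 48 clusters, defined as runs of olfactory receptor genes with under 1 Mb between neighbours. The 29 clusters with 5 or more measured members held 957 of the 994 promoters, and members were spread over 17 chromosomes. In these 29 clusters the medians of the mean level ranged from 77.3% to 89.7%. The lowest was the cluster from Olfr164 to Olfr171 (chr16:19284104-19629916), whose 6 members had medians of 81.7%, 71.95%, 80.1% and 80.7%. Next came the cluster from Olfr20 to Olfr412 on chromosome 11 (28 members, 78.2%) and that from Olfr24 to Olfr18 on chromosome 9 (26 members, 79.3%). The highest was the cluster from Olfr16 to Olfr220 (chr1:172950409-174451277), whose 19 members had medians of 90.9%, 90.5%, 90.9% and 89.2%. The largest cluster, Olfr987 to Olfr1274-ps on chromosome 2, had 183 measured members and a median of 85.2%. Medians of clusters of 5 to 8 members rest on few promoters. The order of the clusters was not tested, and its lowest and highest ends changed with the processing. No member lay under 70% in 6 of the 29 clusters.

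The class I cluster around beta-globin (chr7:102476579-105369355, Olfr543 to Olfr692) had 123 measured promoters and 871 promoters belonged to class II. Class I medians were 88.6%, 88.9%, 89.6% and 89.4%, and class II medians were 85.7%, 85.6%, 85.5% and 85.4%. The difference was 2.86, 3.33, 4.04 and 4.02 percentage points in the 4 files, always with class I higher. It is a difference between a single cluster and all others, and class II clusters of 5 or more measured members also reached this level, Olfr16 to Olfr220 at 89.7%, Olfr1378 to Olfr1375 at 89.4% and Olfr288 to Olfr279 at 89.3% against 89.5% for class I.

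Sequence between the genes was methylated like the promoters. CpGs inside the 29 clusters, outside protein-coding genes and at least 1 kb from any start, had a pooled level of 85.1% to 85.3% in the 4 files. The 500 kb to either side of the clusters had 81.9% to 82.4%. The interior lay above the flanks in every file in 17 clusters and below them in every file in 7, so the direction was not shared by all. Interiors were lowest in the chromosome 13 cluster from Olfr1370 to Olfr1359, with 66.6% to 67.4%. The promoters of its 13 measured receptors had medians of 84.4% to 85.6%.

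Genes of other kinds with starts inside the clusters did not share the uniformly high level. Of 215 such promoters in 19 clusters, 73 lay under 20% and 88 at 80% or more. Over all other autosomal promoters, 60.1% lay under 20% and 21.2% at 80% or more. Among the 215, those with 20 or fewer CpGs had a median of 86.6% (91 promoters) and those with more CpGs 13.3% (124 promoters). Ifi47, an interferon-induced GTPase gene in the chromosome 11 cluster from Olfr1396 to Olfr1380, was called lower in B cells, with 8.75% (female) and 8.87% (male) in B cells and 40.2% and 53.3% in T cells. Mpeg1, which encodes the pore-forming protein perforin-2, and its neighbour Pfpl in the chromosome 19 cluster were the other 2 called, both lower in B cells. These 3 of 215 stand beside 189 of 21082 promoters called in all (0.896%). No olfactory receptor promoter was called in the 2 clusters that hold the 3 genes, and 1 of 994 was called anywhere.

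B and T cells were compared to ask whether the receptor promoters differ between these lymphocytes. Over the 994 promoters the median difference, B minus T, stood at 0.00 points in females and at 0.22 points in males, with an SD over members of 6.47 and 6.33 points. A total of 263 members were higher in B cells in both sexes, 254 were lower in both, and 477 had no shared sign. Across the 994 members Pearson's r between the female and the male difference was 0.11, against 0.70 across the other autosomal promoters. The points share files, and the receptor promoters have far fewer reads (a median of 78 to 86.5 per file against 987 to 1327). A difference of 10 points or more with the same sign in both sexes was seen at 11 members higher in B and 6 lower, 1.71% of members, against 2.53% of other autosomal promoters.

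A quasi-binomial model with terms for cell type and sex was fitted to all 21082 promoters, and calls needed a Benjamini-Hochberg adjusted p under 0.05 as well as 20 points or more between the cell type means. Of 994 olfactory receptor promoters 1 was called, Olfr1507, beside 189 of 21082 promoters (0.896%), with 100 (0.474%) called higher and 89 (0.422%) called lower in B cells. At an unadjusted p under 0.05 there were 13 members, or 1.31%, against 15.1% of the other autosomal promoters. Where cell types do not differ, a share near 0.05 would fall there, so the fit was strict for members. The low share of members therefore does not measure how alike the cell types are. The number of members at this p depended on the test, with 9 under Fisher's exact test and 142 under limma. For Fisher's exact test the p had to be under 0.05 in both sexes, so its count is not directly comparable. The share of other promoters was not counted for limma or Fisher's exact test. The contrast with other promoters is thus known for the quasi-binomial fit only. Fisher's exact test and limma each called 1 member, beside 201 (0.953%) and 151 (0.716%) of the 21082 promoters. The quasi-binomial fit called 0 members when 10 reads per CpG were required (0.91% of all promoters called), when the window had 500 bp to either side (0.852%) and when its prior came from all promoters (0.83%). Depth limits what could be detected. The median range over the 4 files was 11.4 points in members with at most 45 reads in their thinnest file and 5.396 points in those with 109 or more.

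**Figure D3:**
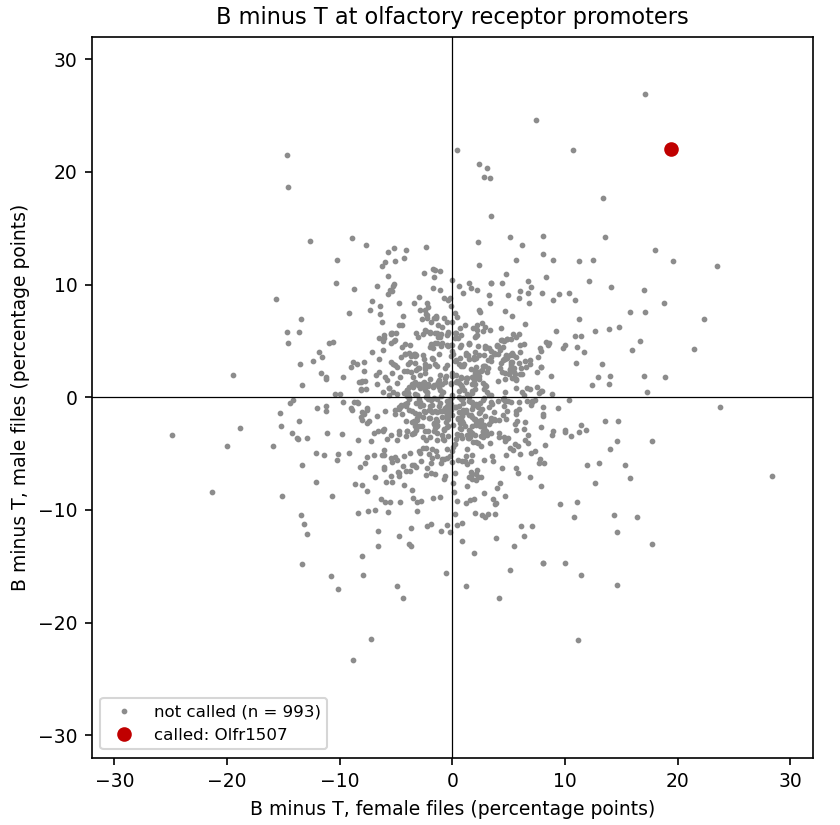
Difference in methylation, B minus T, in percentage points for each of the 994 olfactory receptor promoters, female files on the horizontal axis and male files on the vertical axis. The cloud centres on 0 in both directions, and Olfr1507, in red, is the single called member.

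By cluster, the median difference, B minus T, was above 0 in both sexes in 9 of the 29 clusters, below 0 in both in 6 and of no shared sign in 14. In the cluster from Olfr723 to Olfr1507 on chromosome 14 it reached 1.19 points (females) and 2.69 points (males), and 14 of its 34 members were higher in B cells in both sexes and 7 lower. In the cluster from Olfr1417 to Olfr1505 on chromosome 19 it was -0.73 and -1.95 points, with 10 of 60 members higher and 19 lower in both sexes. The class I cluster had -0.07 and -0.07 points, with 33 members higher and 35 lower. The largest cluster values were 4.97 points in females, in the 6 members from Olfr164 to Olfr171, and 3.47 points in males, in the 19 members from Olfr16 to Olfr220. The same clusters had 0.86 points in males and 0.71 points in females. No cluster was tested.

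Olfr1507 encodes MOR28, a class II receptor used as a model of receptor choice. Its 13 measured CpGs had a pooled level of 82.4% in female B cells (159 of 193 reads, 95% Wilson interval 76.4% to 87.1%) and 86.1% in male B cells (80.9% to 90.1%). In T cells the level was 63.0% (56.3% to 69.3%) in females and 64.0% (57.6% to 69.98%) in males. Both B cell files lay above both T cell files, and the intervals of the cell types did not overlap. These intervals take counts at neighbouring CpGs as independent, though a single read can give several of them. The mean difference was 20.7 points, with an adjusted p of 0.0318 in the quasi-binomial fit. The value lies just past both thresholds, and the adjusted p was 0.0520 by limma on log2 ratios and 0.0571 with a prior from all promoters. It was 0.000253 by Fisher's exact test, as the larger of the adjusted values of the 2 pairs of files. Fisher's exact test takes every read at every CpG as independent. The quasi-binomial fit had a prior dispersion of 2.08, so counts varied more between files than Fisher's exact test assumes. With any of the 4 files left out the difference was 18.8 to 22.6 points and the adjusted p 0.269 to 0.397. Those fits had no term for sex and 1 file in one cell type, assumed to vary like the others, and only 32 to 40 of all promoters were called in them.

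The difference was concentrated around the start. Bounds of the stretches given here and in the next paragraphs were chosen after the values were seen, so these levels carry no test. Across 6 CpGs from 294 bp upstream to 191 bp downstream, the level in B cells was 74.04% (female) and 78.4% (male), and that in T cells was 29.2% and 30.6%. The 3 CpGs from 76 bp upstream to 112 bp downstream had 57.7% (30 of 52 reads) and 76.9% in B cells against 4.26% (2 of 47 reads) and 6.00% in T cells. Of these, the CpG at 76 bp upstream had no methylated read among 8 in female and 12 in male T cells. Further downstream the files came together. The 6 CpGs from 262 to 550 bp had 91.1%, 90.1%, 92.0% and 94.1%.

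Runs of CpGs with such a gap were rare. A run of at least 3 consecutive CpGs, each 20 points or more higher in B cells in both sexes, occurred in Olfr1507 and in no other member, and in 1.85% of other autosomal promoters. No member had such a run lower in B cells, against 1.73% of other autosomal promoters. Members have far fewer CpGs in which such a run could lie, with a median of 6 against 66.

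**Figure D4:**
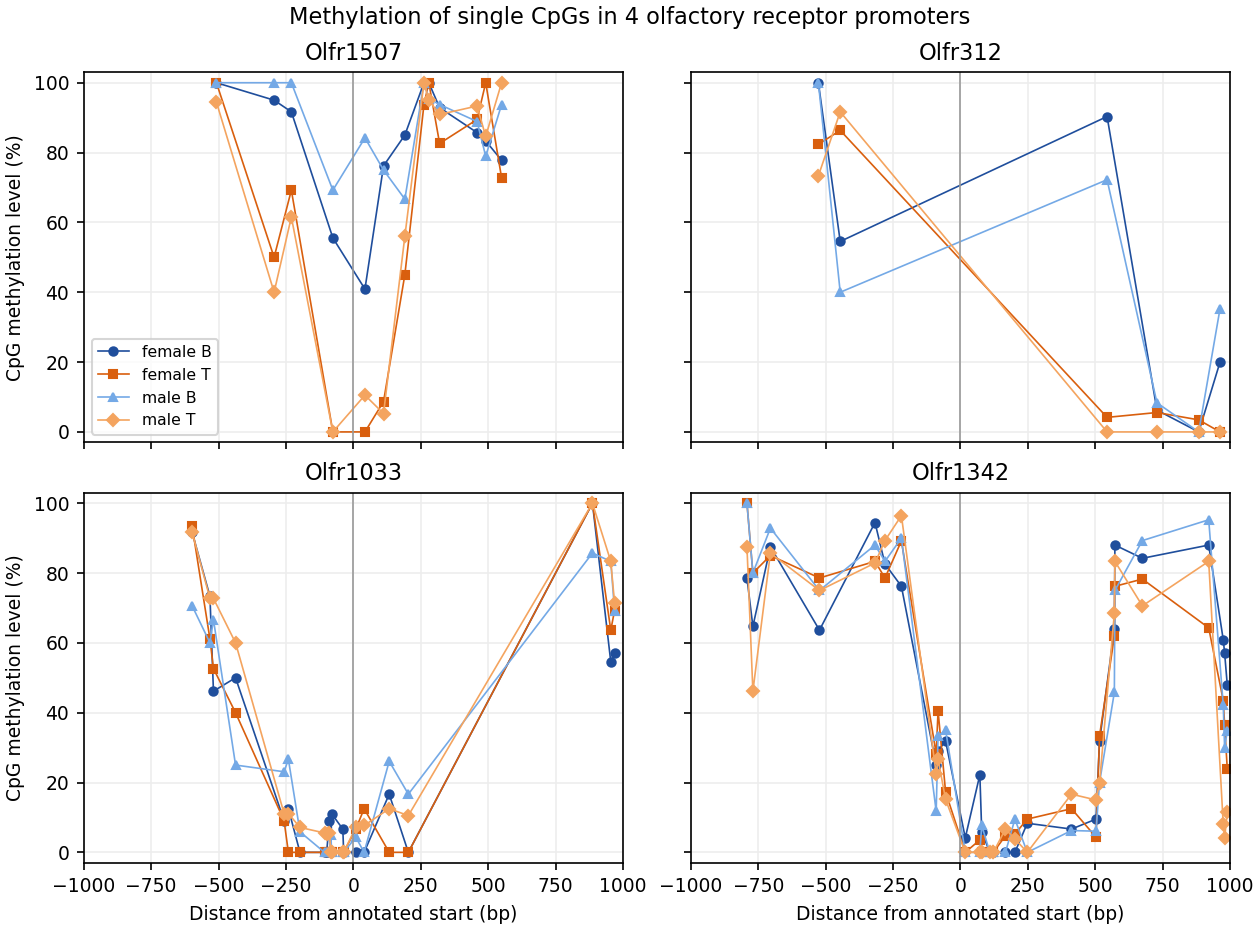
Methylation level of single CpGs in percent (vertical axis) against distance from the annotated start (horizontal axis, bp, negative is upstream) in Olfr1507, Olfr312, Olfr1033 and Olfr1342, with a colour and marker for each file and lines joining neighbouring CpGs. In Olfr1507 the T cell files fall to 0% at 76 bp upstream while both B cell files stay above 50% there. That CpG had 9 and 8 reads in B and T cells of females and 13 and 12 in those of males. In Olfr1033 and Olfr1342 all 4 files are low together near the start.

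Olfr1507 lies at the end of its chromosome 14 cluster within the T cell receptor alpha locus, whose variable segments are joined to others by recombination in developing T cells. Its start is 67821 bp from that of the segment Trav1 on one side and 71449 bp from that of Trav2 on the other. Trav1 had 91.3% (female) and 90.1% (male) in B cells and 53.9% and 55.7% in T cells. Trav2 had 62.8% and 59.7% in B cells and 49.1% and 61.0% in T cells. The receptor genes on the same side as Trav1 did not pass the test. Olfr1508, the nearest at 28254 bp, had 90.1%, 89.3%, 89.6% and 91.7%. Olfr1509 had 94.5%, 97.8%, 95.2% and 97.7%. Olfr1510, on the other side of Trav1, had 97.7% and 96.0% in B cells and 90.9% and 87.6% in T cells (adjusted p = 0.147). Olfr1511, Olfr1512 and Olfr1513 had between 87.8% and 94.9% in all files. What part the surrounding locus has in the Olfr1507 values was not tested.

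No other member reached the thresholds, and most of those named next were thinly covered. They were ranked by the smaller of the female and the male difference where both had the same sign. Higher in B cells were Olfr1173 (96.2% and 100% in B cells, 79.1% and 73.1% in T cells), Olfr99, Olfr348 and Olfr741, with mean differences of 13.9 to 22.0 points and adjusted p from 0.299 to 0.488 in the quasi-binomial fit. In either direction, other members had larger mean differences than some of those named, for example Olfr312 (17.6 points, adjusted p = 0.241) and Olfr530 (16.3 points, adjusted p = 0.204). Olfr1173 rests on 3 CpGs and 19 to 43 reads per file, and it was the single receptor promoter that limma called in place of Olfr1507. Lower in B cells were Olfr613, Olfr59, Olfr711, Olfr792 and Olfr324, by mean differences of -11.9 to -14.1 points. Olfr324 had the lowest adjusted p of these, 0.0938. Its 19 CpGs had 74.3% and 73.7% in B cells and 87.8% and 84.1% in T cells over 266 to 360 reads. Olfr324 was lower in both B cell files than in either T cell file. Olfr314 and Olfr524 were called only when the window was limited to the 1000 bp upstream, where 1.39% of all promoters were called. Over the full window Olfr524 had 89.5% and 91.6% in B cells and 80.6% and 79.4% in T cells (adjusted p = 0.213), and Olfr314 had 80.4% and 83.1% in B cells and 75.3% and 68.9% in T cells (adjusted p = 0.241).

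A few promoters stood far below the family. The lowest was Olfr1033 in the large chromosome 2 cluster, with 23.2%, 26.7%, 22.4% and 21.2%. Its 14 CpGs from 257 bp upstream to 204 bp downstream, which overlap the sequence printed above, had 4.52%, 2.55%, 6.83% and 5.48%. Its annotated start lies 20684 bp before the coding sequence. Olfr1342 on chromosome 4 had 44.3%, 39.2%, 35.5% and 33.0%, and its 11 CpGs from 18 to 503 bp downstream had 5.81%, 3.14%, 2.53% and 2.97%. Olfr658, a class I member, had 35.5%, 41.8%, 36.1% and 29.4%, and its 19 CpGs around the start had 15.9% to 26.9%. In these 3 promoters the low stretch was shared by B and T cells.

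The other members under 50% were Olfr646, Olfr432, Olfr221 and Olfr1189 together with Olfr312. This list depends on the window. Olfr432 had a mean level of 45.1%, but 56.3% with 500 bp to either side. With 1000 bp upstream only, Olfr1342 rose from 38.0% to 63.0% and Olfr646 fell from 39.2% to 14.9%. Olfr221 on chromosome 14 had 52.5%, 49.6%, 50% and 45.5%. A run of at least 3 consecutive CpGs at 20% or less in every file was found in Olfr1033, Olfr1342 and Olfr221, 0.302% of members, against 69.9% of other autosomal promoters. Single CpGs at 20% or less in every file numbered 56 of 7480 (0.749%) and lay in 26 members.

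Olfr312 on chromosome 11 had 51.2%, 27.7%, 36.3% and 24.6% over 86 to 134 reads (adjusted p = 0.241). The CpGs moved in different directions. At 544 bp downstream the level in B cells was 90.3% (female) and 72.2% (male), and that in T cells was 4.17% and 0%, the latter from 0 of 30 reads. At 446 bp upstream the level was 54.5% and 40.0% in B cells and 86.4% and 91.7% in T cells. Its 4 CpGs from 544 to 963 bp had 45.6% and 25.9% in B cells and 3.30% and 0% in T cells, where 0 of 95 reads allows up to 3.16% when 3 reads are taken as the limit and 3.89% by the Wilson interval. This promoter has 6 CpGs, and both stretches were chosen after their values were seen.

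At the other end, Olfr131, Olfr980, Olfr645, Olfr64 and Olfr169 had the highest mean levels. Olfr645, a class I member with 10 CpGs, had 98.1%, 98.1%, 97.4% and 95.3% over 154 to 213 reads per file. The widest ranges over the files were those of Olfr136, Olfr772, Olfr1184, Olfr1173 and Olfr195, from 26.9 to 33.0 points. All 5 rest on 3 or 4 CpGs and at most 51 reads in any file.

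Receptors with well-described ligands or roles had levels within the range of the family. Olfr2 (I7, a receptor for octanal) had 94.5%, 88.9%, 84.8% and 81.2%. Olfr16 (MOR23, a lyral receptor also made in sperm) had 85.2%, 85.4%, 78.6% and 83.7%. Olfr78, a receptor for short-chain fatty acids and lactate found outside the nose, had 91.9%, 96.3%, 93.9% and 87.5%. Olfr544, a receptor for azelaic acid also found outside the nose, had 91.5%, 95.1%, 92.9% and 92.0%. Olfr160 (M72) had 93.6%, 90.7%, 92.1% and 87.8%. Olfr17 (P2), Olfr73 (a eugenol receptor) and Olfr124 (SR1) had levels between 66.1% and 91.3% in the 4 files. Of these 8, none was called, with adjusted p from 0.637 to 0.965. Olfr151 (M71) is annotated as a polymorphic pseudogene and was outside the rule.

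Males and females were compared in the same way. The median difference, female minus male, stood at 0.01 points for B cells and at 0.17 points for T cells, with an SD over members of 6.27 and 6.47 points. None of 994 members was called in the quasi-binomial fit, beside 0 of 20255 autosomal promoters (0%). At an unadjusted p under 0.05 there were 5 members (0.503%), against 4.83% of the other autosomal promoters, and the fit was strict for members here too. Limma and Fisher's exact test also called 0 members, beside 0 of the 20255 autosomal promoters. They had 113 and 5 members at an unadjusted p under 0.05, which for Fisher's exact test had to hold in both cell types. For these tests the share of other promoters was not counted.

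Sequence motifs were searched on both strands from 250 bases before to 50 after the start, because EBF1 is made in B cells as well as in olfactory neurons and homeodomain factors such as LHX2 act at receptor genes. The core of the EBF site, CCCNNGGG, was found in 15.9% of members and 16.2% of all autosomal promoters. The full site, which is this core with T before it and A after it, was found in 26 members (2.62%) and in 1.02% of all autosomal promoters. The homeodomain core TAATTA was found in 23.3% of members and 4.96% of all autosomal promoters, and the windows of members are richer in A and T. The 26 members with the full EBF site had a median B minus T of -0.33 points in females and -0.35 points in males, against 0.00 and 0.23 points in the members without it. Single values among the 26 ran from -13.4 (Olfr324) to 13.4 points (Olfr348) in females. In males the same 2 members had the lowest and highest values, -10.4 and 17.7 points. The 158 members with the core had medians of 0.10 and 0.40 points, against 0.00 and 0.20 points without it. None of these medians was tested. All 3 motifs read the same on either strand. These are matches of letters, and no binding was measured.

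Genes that act with the receptors were taken from short lists of known genes. Of 12 genes of olfactory signal transduction, 0 were called between B and T cells. With 0.896% of all promoters called, 0 of 12 says little. In level, 5 lay at 80% or more and 5 under 20%, against 21.2% and 60.1% of other autosomal promoters. The 5 high ones had 18 to 54 measured CpGs and the 5 low ones 67 to 109. Omp, the olfactory marker protein, had 95.4% to 97.4%, and Cnga4 and Cngb1, subunits of the olfactory cyclic nucleotide-gated channel, had 89.3% to 93.5% and 85.6% to 88.8%. Rtp1 and Rtp2, which carry receptors to the cell surface, had 87.3% to 95.3%. Ric8b, Adcy3, Gng13, Gnal and Pde1c lay under 20% by the mean over files. Of 12 genes known to regulate receptor choice, all lay under 20% and 0 were called. They include Lhx2 and Ebf1, the latter with 2.07% (female) and 2.12% (male) in B cells and 6.41% and 5.72% in T cells (adjusted p = 0.0768).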

How the data were processed

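The deposited files, 1 for each of the 4 groups, list every CpG with its methylation level as a fraction and its coverage as a count of reads. The authors merged both strands and kept CpGs with 5 or more reads. The submitters' processing notes name Trim Galore, FastQC, Bismark 0.13.1 and the build mm10. Roles of these tools, duplicate removal and the conversion rate are not given in the sources used here. All 20639665 CpGs fell on CpGs of the GRCm38 reference. No other column of sample values was used.

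Methylated reads were the deposited fraction times the count of reads, rounded. A promoter's level was methylated over all reads of its CpGs, 1000 bp to either side of the gene's annotated start. Reads were counted at each CpG and summed, so a read over several CpGs counts at each. Wilson 95% intervals cover counting error only, take these counts as independent and so may be too narrow. PCR reads are not independent molecules. Distances are those of the plus-strand C of a CpG. Promoters were fitted with a quasi-binomial logistic model (terms cell type and sex), which leaves 1 residual degree of freedom. Its dispersion was moderated by limma 3.58.1 in R 4.3.3, with a prior from promoters with at least 5 expected reads of each kind in every file. F tests were adjusted by Benjamini-Hochberg, over all 21082 promoters for cell type and over the 20255 autosomal promoters for sex. Code was tested on simulated data. The members, gene lists and tests were chosen with earlier results of these data known. Named genes were known receptors, called members, the 5 largest differences each way (by the smaller of the female and male values), the 10 lowest and 5 highest levels, the 5 widest ranges and the lowest member of each cluster. F tests have no direction.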

Additional observations from a re-analysis of the deposited data

How the results depend on the processing

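The cell type call on receptor promoters depended on the processing. Against 1 called member, 0 were called with 10 reads per CpG, with 500 bp to either side or with a prior from all promoters, beside 0.91%, 0.852% and 0.83% of all promoters. With 1000 bp upstream only, 3 of 579 members (Olfr1507, Olfr314 and Olfr524) were called, beside 1.39% of all promoters against 0.896% in the full window. Leaving out any 1 file, in a fit with no term for sex, left 0 called members (lowest 0, highest 0), but also only 32 to 40 of 21082 promoters. A window of 250 bp to either side, chosen after seeing the data, left 0 of 289 members and 0 of 18840 promoters called, the markers of both cell types included, and says nothing about stability. There the median B minus T was -0.295 points. Olfr1507 was higher in B cells in all 12 alternatives, by 18.8 to 45.8 points, with the largest value in the 250 bp window. All of them reuse the same reads. Those that changed only the test or the other promoters kept its 20.7 points, so their direction was fixed beforehand. Olfr1507 passed the adjusted p in 3 of the 12. For sex, 0 members were called in all 15 alternatives, beside 0 autosomal promoters wherever all were counted, so this is no trait of the receptor promoters. The median level was 85.7% and rose to 86.7% with 10 reads per CpG or 500 bp to either side, 87.9% with 1000 bp upstream and 87.5% with 250 bp to either side. These windows keep fewer members. The largest cluster median of B minus T (each member's mean of the female and male differences), 2.48 points, was -3.28 with 10 reads per CpG, 3.76 with 500 bp, 3.496 as a mean over members and 2.92 to 4.65 with a file left out, in different clusters. Thus no cluster can be named as differing. The lowest cluster by level was instead Olfr1344 to Olfr1350 with 10 reads per CpG, and Olfr20 to Olfr412 with 500 bp, without the female T cell file or as a mean over members. The highest was the class I cluster with 10 reads per CpG or without the male T cell file, and Olfr1378 to Olfr1375 without the female B cell file or as a mean over members. With a 500 kb gap it was the part from Olfr433 to Olfr220 of the chromosome 1 cluster, at 92.8%. Why these values moved was not tested. Of 164 recomputed levels of other named members, 63 moved past their counting interval. The other medians and differences stayed within their own spread. The groups share no replicate numbers, so no fit with a replicate block was made. B and T cells were set against each other within each sex through the sex term. Depth limits single promoters, and groups have 1 file each.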

Other observations

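Olfactory receptor genes outside the rule were measured in the same windows. Of 272 receptor pseudogenes and the 7 receptor genes on X, 253 autosomal pseudogenes and 5 X-linked protein-coding genes had enough CpGs. The pseudogenes had median levels of 88.0%, 87.5%, 87.9% and 87.7%, a little above the 86.1%, 86.0%, 86.0% and 85.9% of the protein-coding members. Only 6 of them lay under 50%. The lowest was Olfr1372-ps1 on chromosome 11, whose 105 CpGs had 6.46%, 5.75%, 5.51% and 8.71%, followed by Olfr1542-ps1 at 25%, 27.8%, 9.38% and 22.9% over 24 to 48 reads.

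The 5 X-linked receptor promoters had medians of 80.9% (B) and 81.4% (T) in females and 88.9% and 85.7% in males. Of these, 2 lay higher in females than in males in B cells and 1 in T cells. They rest on 3 to 8 CpGs and on 20 to 134 reads in a file, and no test was made.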
